A study of Mus musculus with 14 samples.

Results

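The mitochondrial ribosomal proteins were examined here as 1 gene module, in 14 whole-heart RNA-seq libraries from female FS6KD mice. Members were the rows of both count tables whose symbol starts with Mrpl or Mrps and a number, after 8 numbered copies of such symbols had been dropped, and a member had to exceed 1 CPM, the read count scaled to library size, in at least 1 library. This gave 78 of 42396 names, 49 for the large subunit (Mrpl) and 29 for the small subunit (Mrps). All 78 passed the filter in both tables. Their genes lay on 17 chromosomes, and 11 of them were on chromosome 11.

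FS6KD mice carry a gene trap in Ndufs6, a subunit of respiratory complex I, on a mixed C57BL/6J and 129/Ola background, and every mouse of the series had this knockdown, controls included. In the knockout experiment, 4 hearts were labelled Atf3+/+FS6KD and 4 Atf3-/-FS6KD, all at 12 weeks. The deletion spans exons of Atf3, a stress-induced transcription factor, and was made by CRISPR-Cas9 in fertilized eggs, whose founders were intercrossed. In the AAV experiment, 3 libraries were labelled MyoAAV2-shCtrl and 3 MyoAAV2-shAtf3. They came from FS6KD mice injected as neonates with a muscle-directed virus that carried a control or an Atf3 short hairpin RNA. RNA was taken after 12 weeks. The study asked how loss of Atf3 alters mitochondrial and energy-related genes in the FS6KD heart.

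The mitochondrial ribosome, or mitoribosome, translates the few proteins that mitochondrial DNA encodes, all of them parts of the oxidative phosphorylation (OXPHOS) machinery. Its RNAs come from mitochondrial DNA, whereas all of its proteins are encoded in the nucleus, made in the cytosol and imported. Some of these proteins descend from the bacterial ribosome and others were added in mitochondria, and hearts, which depend on OXPHOS, are among the organs affected when human MRP genes are mutated. By place in the assembled particle the members comprised 51 large and 26 small subunit proteins, because Mrps30 and Mrps18a sit in the large subunit and Mrps36 is a component of the 2-oxoglutarate dehydrogenase complex. Of the 77 ribosomal members, 46 were classed as homologs of bacterial proteins and 31 as mitochondria-specific.

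Atf3 itself did not follow the labels at the level of the whole gene. It stood at 25.8, 6.89, 6.91 and 6.36 CPM in the libraries labelled Atf3+/+FS6KD and at 25.6, 37.6, 22.7 and 14.3 CPM in those labelled Atf3-/-FS6KD. It stood at 10.1, 13.3 and 14.1 CPM under the label shCtrl and at 21.2, 12.2 and 16.5 CPM under shAtf3. Gene counts do not separate the deleted exons from the rest, and the AAV column names read opposite to the labels. All directions below are therefore conditional on the labels in both experiments. Total counts were 33914931 to 134920825 per library in the knockout experiment, where replicates 3 and 4 of each genotype were the deeper ones, and 30085432 to 40534913 in the AAV experiment. Cardiomyocyte markers summed to between 51624 and 69300 CPM in every library, with all 8 of them detected in every group.

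Mitoribosomal protein genes were moderately expressed and differed widely from each other. The mean over the 14 libraries ran from 11.03 to 318 CPM per gene. The lowest, Mrps18b, shares reads with copies on other loci, and with all copies added, a choice made after the data had been seen, the lowest was Mrps11 at 20.996 CPM. Per kilobase of the principal transcript, the highest levels were those of Mrpl42 (477 CPM per kb), Mrpl12 (199) and Mrps21 (154), and the lowest were those of Mrpl57 (8.01), Mrpl47 (7.98) and Mrpl17 (6.33). Mrpl12 forms the stalk of the large subunit that recruits translation factors. The principal transcript of Mrpl17 is 7300 bases long, and its level without regard to length was 46.2 CPM. With the union of exons as length, a choice made after the data had been seen, Mrpl42, Mrpl12 and Mrps21 again took ranks 1, 2 and 3, and Mrpl17 again took rank 78. Most genes varied little across the series: the highest library exceeded the lowest by a median of 1.30-fold. Mrps23 was the exception at 4.17-fold and is described with its copies below.

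**Figure D1:**
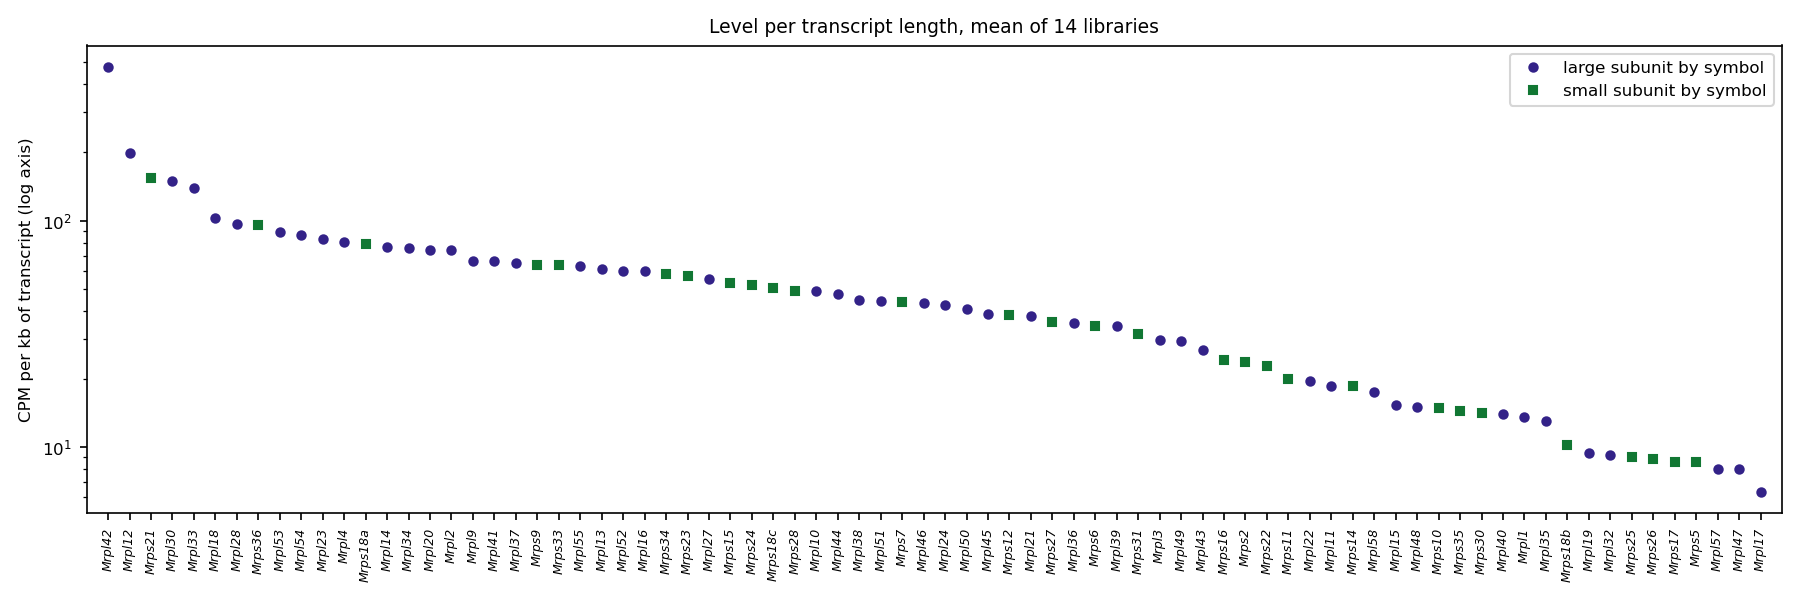
Level of each of the 78 genes, as CPM per kb of the principal transcript averaged over 14 libraries, on a log axis, with large subunit genes as circles and small subunit genes as squares. Mrpl42 at 477 CPM per kb stands apart at the upper end, and both subunits are spread over the whole order down to Mrpl17 at 6.33.

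In the knockout experiment most mitoribosomal protein genes lay slightly lower in the libraries labelled Atf3-/-FS6KD. Their summed level was 4799, 5285, 5092 and 5213 CPM in Atf3+/+FS6KD and 4771, 4867, 4774 and 4735 CPM in Atf3-/-FS6KD. Atf3+/+FS6KD replicate 1 thus lay within the range of the Atf3-/-FS6KD libraries, and the other 3 lay above it. The means were 5097 ± 214 and 4787 ± 56.1 CPM (SD, n = 4 each). Of the 78 genes, 68 had a negative log2 fold change and 10 a positive one, and the median was -0.08. Over all 15592 genes tested, 49.8% were lower, 50.2% were higher and the median was 0.00. None of the members passed an adjusted p of 0.05 in edgeR's quasi-likelihood test, the smallest being 0.374, and none of all genes did either (0%). At an unadjusted p below 0.05, 6 members were lower, where 4.69% of all genes were, and 0 were higher, where 5.41% of all genes were. With the shared split in depth as a term in the fit, 13 members were lower at that level (5.89% of all genes), and with the replicate number as a block 10 were (5.72%). DESeq2 called 208 genes, 0.648% of those tested being lower and 0.686% higher, and 1 of them was a member, Mrpl51, lower. Under scaling by library size only, the median of the members was -0.02 with 48 of 78 lower, and the median of all genes moved to 0.06. With that scaling, 0 members were lower at an unadjusted p below 0.05 (2.12% of all genes).

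The shift was not equal in all libraries. Compared with the mean of the Atf3+/+FS6KD group, 61, 50, 55 and 65 members were lower in Atf3-/-FS6KD replicates 1 to 4 (49.7%, 50.1%, 48.8% and 48.6% of all genes). Below the mean of the Atf3-/-FS6KD group lay 36, 14, 16 and 14 members in Atf3+/+FS6KD replicates 1 to 4 (50.7%, 51.4%, 50.6% and 50.9%). Among the 8 libraries, Atf3-/-FS6KD replicates 3 and 4 were the lowest for 23 and 15 members, where they were the lowest for 12.5% and 8.12% of all genes. Atf3+/+FS6KD replicate 1 was the lowest for 14 members and for 12.2% of all genes. Atf3+/+FS6KD replicates 2 and 4 were the highest for 31 and 23 members, and for 16% and 11.9% of all genes. The library with few mitoribosomal transcripts, replicate 1, was also the Atf3+/+FS6KD library with high Atf3. Without it, the median of the members was -0.10 with 69 lower, 14 were lower at an unadjusted p below 0.05 (5.02% of all genes), and 1 (Mrps23) was among the 15 genes called. Without Atf3+/+FS6KD replicate 2, the median was -0.06 and 2 members reached that level (3.57% of all genes), and without Atf3-/-FS6KD replicate 3 it was -0.08 and again 2 reached it (3.29%). Within the shallower replicates 1 and 2 the median was -0.05 (56 of 78 lower), and within the deeper replicates 3 and 4 it was -0.10 (70 of 78 lower).

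Large and small subunit genes lay on the same side in this comparison. The mean log2 CPM of the large subunit was 5.85, 5.96, 5.95 and 5.97 in Atf3+/+FS6KD and 5.85, 5.87, 5.86 and 5.85 in Atf3-/-FS6KD. That of the small subunit was 5.38, 5.55, 5.52 and 5.54 in Atf3+/+FS6KD and 5.44, 5.44, 5.41 and 5.41 in Atf3-/-FS6KD. The median log2 fold change was -0.08 for the 49 large subunit genes, of which 43 were lower, and -0.06 for the 29 small subunit genes, of which 25 were lower. Under scaling by library size only, these medians were -0.020 and -0.0021. The difference of large minus small subunit in mean log2 CPM was 0.44 ± 0.02 in Atf3+/+FS6KD and 0.43 ± 0.02 in Atf3-/-FS6KD (SD, n = 4 each), and the groups overlapped. Atf3+/+FS6KD replicate 1 had the lowest small subunit mean of the 8 libraries, and Mrps23, described with its copies below, carried this. With Mrps23 left out, the mean was 5.41 in that library and 5.40 to 5.43 in Atf3-/-FS6KD, and the difference of the subunits was 0.44 against 0.42 to 0.46. By class, 37 of the 46 bacterial homologs and 30 of the 31 mitochondria-specific proteins had a negative fold change, with medians of -0.07 and -0.09. All 21 mitochondria-specific proteins of the assembled large subunit were among the latter.

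**Figure D2:**
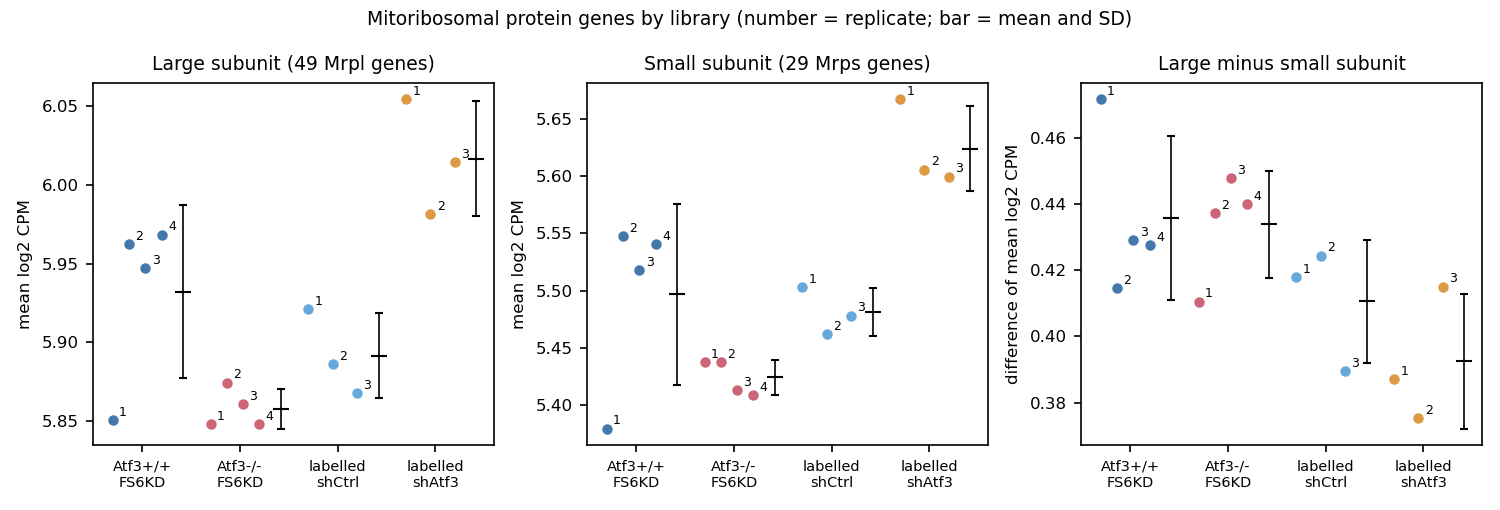
Mean log2 CPM of the 49 large subunit genes (left) and of the 29 small subunit genes (middle), and their difference (right), in each library, with numbered replicates and with the mean and SD of each group. Atf3+/+FS6KD replicate 1 lies among the Atf3-/-FS6KD libraries for the large subunit, and below all 4 of them for the small subunit and above all 4 for the difference, the latter pair only with Mrps23 included, as plotted. The 3 libraries labelled shAtf3 lie above the 3 labelled shCtrl for both subunits, and the difference of the subunits overlaps between the groups of either experiment.

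The lowest p in the knockout comparison belonged to Mrpl51, a mitochondria-specific protein of the large subunit. Mrpl51 stood at 151, 162, 148 and 149 CPM in Atf3+/+FS6KD and at 134, 133, 139 and 136 CPM in Atf3-/-FS6KD. Every Atf3-/-FS6KD library lay below every Atf3+/+FS6KD library. The log2 fold change was -0.17 (SE 0.05, edgeR unadjusted p 0.0078, adjusted p 0.374), and in DESeq2 the adjusted p was 0.0438. Among the alternatives, its adjusted p lay between 0.0438 and 0.813.

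Mrps30 came next. Its protein carries a small subunit name but belongs to the large subunit. Mrps30 stood at 52.1, 51.0, 48.3 and 45.3 CPM in Atf3+/+FS6KD and at 43.5, 44.2, 42.7 and 44.4 CPM in Atf3-/-FS6KD, again without overlap. Its log2 fold change was -0.17 (SE 0.06, unadjusted p 0.017). The exons of Mrps30 overlap those of B430218F22Rik on the opposite strand, and whether counting used strand is not given in the sources used here.

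Mrpl42, the most abundant transcript of the module, stood at 328, 353, 292 and 310.1 CPM in Atf3+/+FS6KD and at 274, 304, 269 and 275 CPM in Atf3-/-FS6KD. Here the groups overlapped, through Atf3-/-FS6KD replicate 2. The log2 fold change of Mrpl42 was -0.19 (SE 0.07, unadjusted p 0.024). Mrpl30, a bacterial-type large subunit protein, stood at 143, 153, 148 and 156 CPM in Atf3+/+FS6KD and at 137, 138, 136 and 141 CPM in Atf3-/-FS6KD. The groups of Mrpl30 did not overlap, and its log2 fold change was -0.12 (SE 0.05, unadjusted p 0.035). The remaining members at this level were Mrpl22, which lines the peptide tunnel (-0.20, SE 0.08, unadjusted p 0.029), and Mrpl4 (-0.13, SE 0.06, unadjusted p 0.047). All of these had adjusted p values of 0.374 or more in edgeR.

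Across the module, the groups of the knockout comparison did not overlap for 8 members, all lower in Atf3-/-FS6KD: Mrpl22, Mrpl30, Mrpl39, Mrpl46, Mrpl50, Mrpl51, Mrps30 and Mrps36. Of all genes, 2.63% were lower without overlap. No member was higher without overlap (3.08% of all genes were). The members with positive fold changes were Mrpl20, Mrpl47, Mrpl35, Mrpl17, Mrpl19 and Mrpl33 in the large subunit and Mrps2, Mrps14, Mrps5 and Mrps18b in the small, and the greatest of these values was 0.17, for Mrpl20.

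In the AAV experiment nearly all mitoribosomal protein genes lay higher in the libraries labelled shAtf3. Their summed level was 5018, 4940 and 4913 CPM in the libraries labelled shCtrl and 5567, 5305 and 5427 CPM in those labelled shAtf3. The groups did not overlap, and the means were 4957 ± 54.8 and 5433 ± 131 CPM (SD, n = 3 each). Of the 78 genes, 74 had a positive log2 fold change and the median was 0.13. The 4 exceptions were Mrpl28, Mrpl33, Mrpl52 and Mrpl54, all of the large subunit. Over all 15225 genes tested, 49.1% were higher and the median was -0.0029. None of the members passed an adjusted p of 0.05 in edgeR, the smallest being 0.0945, where 0.0854% of all genes were called higher, 0.453% lower and 0.539% in either direction. At an unadjusted p below 0.05, 28 members were higher (5.05% of all genes were) and 0 were lower (7.65% of all genes were). DESeq2 called 308 genes, 0.473% of those tested being higher and 1.55% lower, and 1 of them was a member, Mrps35, higher. Scaling by library size alone gave a median of 0.09 with 71 of 78 higher, against -0.04 for all genes. With that scaling, 13 members were higher at an unadjusted p below 0.05 (2.5% of all genes).

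For 38 of the 78 members, every library labelled shAtf3 lay above every library labelled shCtrl, where 8.48% of all genes did so, and for 0 members did every one lie below, where 9.94% of all genes did. The library labelled shAtf3 replicate 1 was the highest of the 6 for 47 members, and replicates 2 and 3 were for 13 and 11, where the shares of all genes were 18%, 14.5% and 12.8%. Without that library the median was 0.11 with 72 higher, and 15 members reached an unadjusted p below 0.05 (3.7% of all genes). Leaving out the library labelled shCtrl replicate 2 gave 17 such members (4.45% of all genes) and a median of 0.12. The share of all counts that fell on the module was 0.493% to 0.513% with the label shCtrl and 0.528% to 0.546% with the label shAtf3, and it was 0.473% to 0.512% in Atf3+/+FS6KD and 0.477% to 0.50% in Atf3-/-FS6KD.

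Genes of both subunits lay higher in the AAV comparison. The mean log2 CPM of the large subunit was 5.92, 5.89 and 5.87 with the label shCtrl and 6.05, 5.98 and 6.01 with the label shAtf3. For the small subunit it was 5.50, 5.46 and 5.48, and 5.67, 5.61 and 5.60. All 29 small subunit genes had a positive fold change, with a median of 0.14, as did 45 of 49 large subunit genes, with a median of 0.12. The difference of large minus small subunit was 0.41 ± 0.02 with the label shCtrl and 0.39 ± 0.02 with the label shAtf3 (SD, n = 3 each), with overlap. By class, 44 of 46 bacterial homologs (median 0.12) and 29 of 31 mitochondria-specific proteins (median 0.14) had a positive fold change.

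Mrps35, a mitochondria-specific protein of the small subunit, had the lowest p. It stood at 59.1, 58.2 and 56.4 CPM in the libraries labelled shCtrl and at 73.0, 68.5 and 68.9 CPM in those labelled shAtf3. The groups lay well apart, with a log2 fold change of 0.28 (SE 0.06, edgeR unadjusted p 0.0010, adjusted p 0.0945; DESeq2 adjusted p 0.0146). The alternatives gave Mrps35 adjusted p values between 0.0146 and 0.398. A copy of Mrps35 on another locus held 26.05% to 28.97% of the counts of both together, and with the copy added the log2 fold change was 0.29 (adjusted p 0.0704).

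Mrpl45, which anchors the mitoribosome to the inner membrane beside the tunnel exit, had the largest fold change of the 78 in this comparison. Mrpl45 stood at 101, 92.2 and 78.8 CPM in the libraries labelled shCtrl and at 117, 107 and 114 CPM in those labelled shAtf3, without overlap (log2 fold change 0.31, SE 0.09, unadjusted p 0.0073). The libraries labelled shCtrl differed among themselves by more than 20 CPM. Mrpl55 was tighter in this experiment. It stood at 59.6, 58.5 and 54.8 CPM and at 66.2, 65.5 and 66.2 CPM, without overlap (0.19, SE 0.06, unadjusted p 0.0089). In the knockout experiment Mrpl55 ran from 45.2 to 75.5 CPM in Atf3+/+FS6KD. Its knockout log2 fold change was -0.29 (SE 0.14, edgeR unadjusted p 0.068), with overlap. The difference of the 2 fold changes was -0.49 (SE 0.18, edgeR unadjusted p 0.016, adjusted p 0.185).

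Mrpl24, Mrpl21 and Mrps31 completed the leading members of the AAV comparison. Mrpl24 stood at 58.1, 56.3 and 56.4 CPM with the label shCtrl and at 68.2, 62.5 and 66.2 CPM with the label shAtf3, a log2 fold change of 0.21 (SE 0.06, unadjusted p 0.0069, adjusted p 0.206) that did not pass the adjusted threshold. Mrpl21 had a log2 fold change of 0.20 (SE 0.06, unadjusted p 0.0095) and Mrps31 one of 0.21 (SE 0.06, unadjusted p 0.0091), each without overlap. Exons of Mrpl24 overlap Rrnad1 and those of Mrpl21 overlap Ighmbp2, both on the opposite strand.

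**Figure D3:**
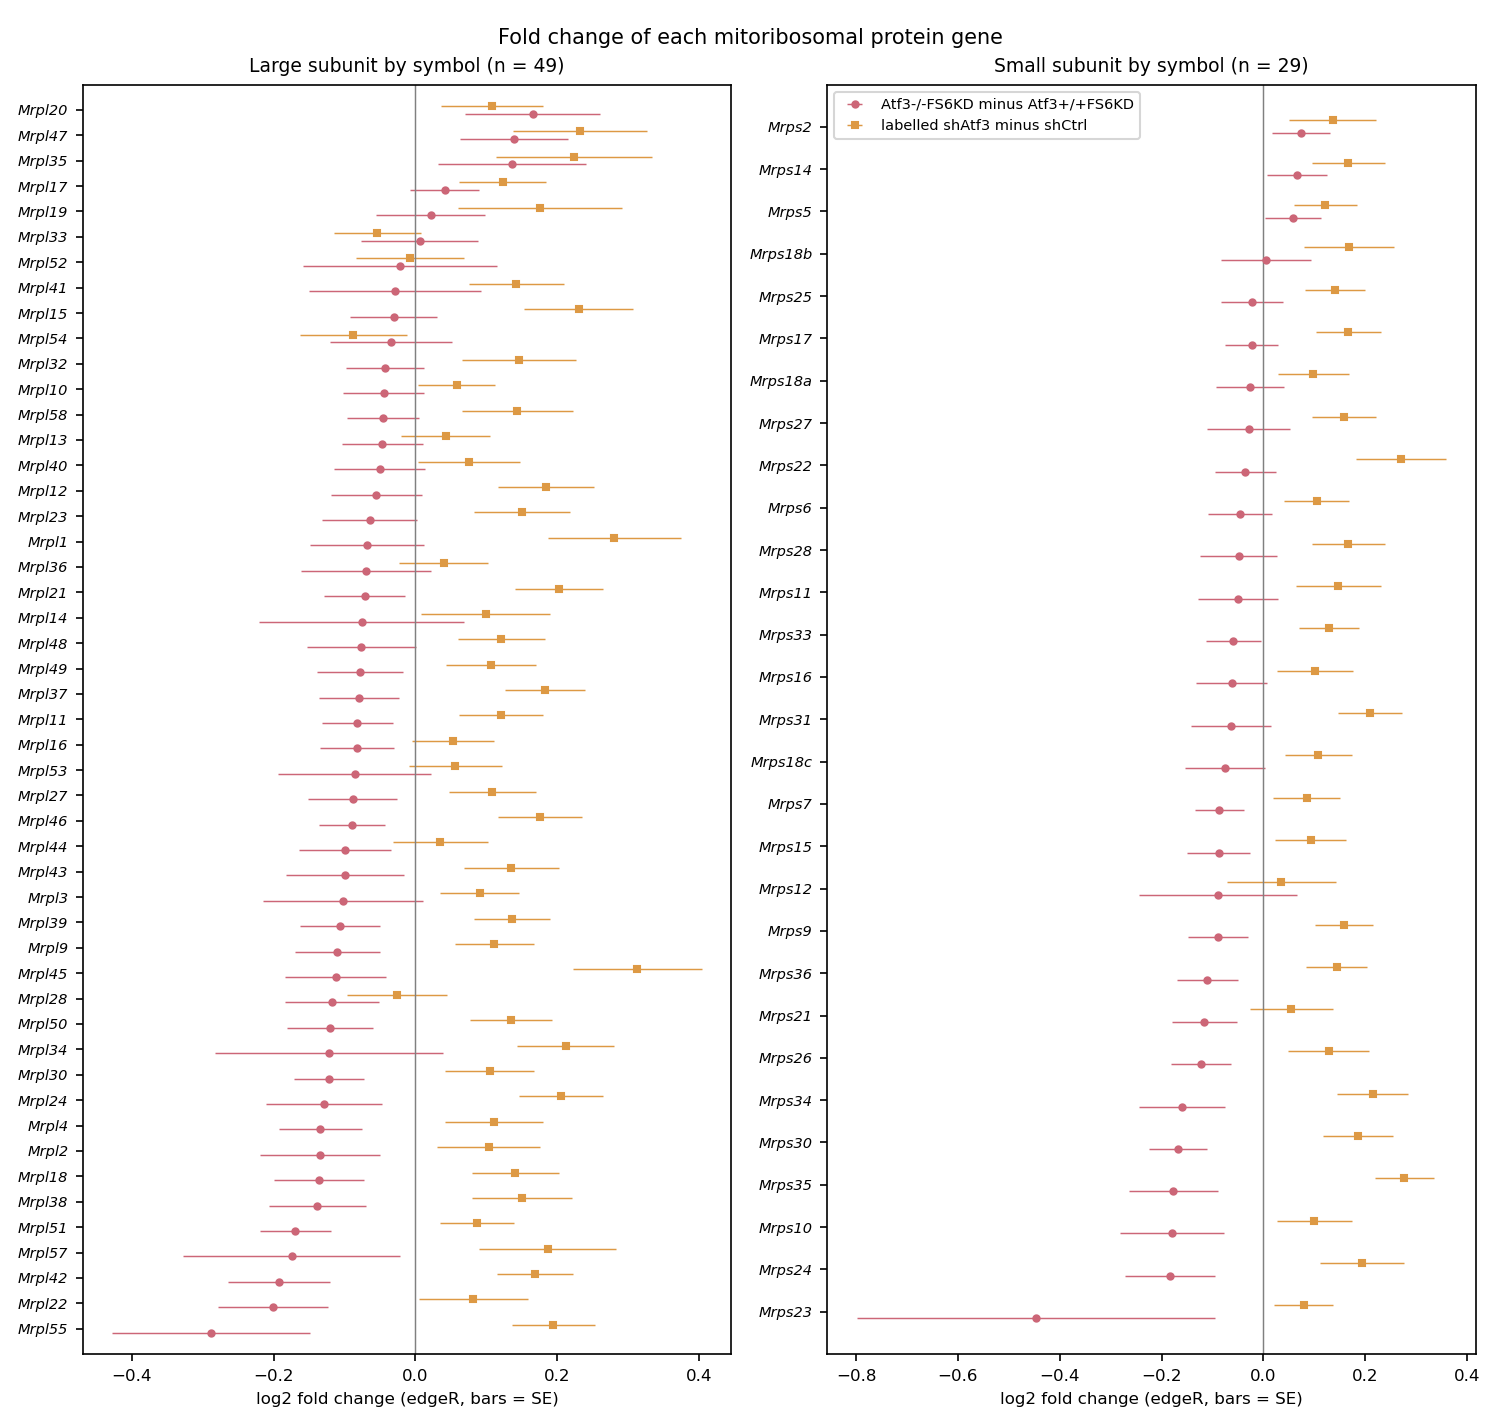
Log2 fold change with SE of each gene, for Atf3-/-FS6KD minus Atf3+/+FS6KD (circles, 4 libraries a group) and for libraries labelled shAtf3 minus shCtrl (squares, 3 a group), with large subunit genes on the left and small subunit genes on the right, ordered by the knockout value. Most circles lie left of 0 (68 of 78) and most squares right of it (74 of 78), and the long bar at the lower end of the right panel is Mrps23.

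The 2 experiments share no library, so the difference of their fold changes was tested in 1 edgeR fit of all 14. The knockout fold change was the lower one for 75 of the 78 members, with a median difference of -0.20, against 0.00 for all 15708 genes tested. None of the members passed an adjusted p of 0.05, the smallest being 0.0877, where 0.0127% of all genes were called in this direction and 0.153% in the other. At an unadjusted p below 0.05 there were 37 members in this direction (7.53% of all genes) and 0 in the other (9.43% of all genes). The 6 with the smallest p were Mrpl46 (-0.27), Mrps30 (-0.36), Mrpl51 (-0.26), Mrps35 (-0.46), Mrpl42 (-0.36) and Mrpl45 (-0.43), with adjusted p values from 0.0877 to 0.103. DESeq2 called 12 members in this direction, these 6 among them, where it called 1.84% of all genes in this direction and 2.42% in the other. With library size alone as scaling, the median of the members was -0.09 and that of all genes 0.11, and 11 members reached an unadjusted p below 0.05 (2.66% of all genes). All these values rest on the AAV labels. With the 2 AAV labels turned, as the column names read, the median difference of the members was 0.04 against -0.0033 for all genes, and 21 of 78 were lower. At an unadjusted p below 0.05, 0 members were then lower (2.17% of all genes) and 6 higher (1.97%) in edgeR, and 0 members were called by edgeR or by DESeq2, which called 3 genes.

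By sign, 65 members were lower in the knockout and higher in the AAV comparison, which 31.4% of all genes in both tests were. With the AAV labels turned, these 65 would be lower in both. As labelled, a further 9 were higher in both (Mrpl17, Mrpl19, Mrpl20, Mrpl35, Mrpl47, Mrps2, Mrps5, Mrps14 and Mrps18b), 3 were lower in both (Mrpl28, Mrpl52 and Mrpl54), and Mrpl33 was the reverse of the majority. For 7 members the groups did not overlap in either comparison, lower in Atf3-/-FS6KD and higher in libraries labelled shAtf3 (0.503% of all genes): Mrpl30, Mrpl39, Mrpl46, Mrpl50, Mrpl51, Mrps30 and Mrps36. Mrpl46, for example, stood at 47.2, 48.7, 47.7 and 49.1 CPM in Atf3+/+FS6KD, at 45.7, 46.4, 44.2 and 44.9 CPM in Atf3-/-FS6KD, at 49.6, 49.1 and 47.2 CPM in libraries labelled shCtrl and at 57.2, 53.1 and 54.4 CPM in those labelled shAtf3. Its 4 groups thus kept to narrow bands that did not touch within either experiment. Members with a larger decrease in the knockout did not have a larger increase in the AAV comparison: over the 78 genes, which are not independent and share their libraries, Pearson's r of the fold changes was 0.0099 and Spearman's rho was -0.0031.

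**Figure D4:**
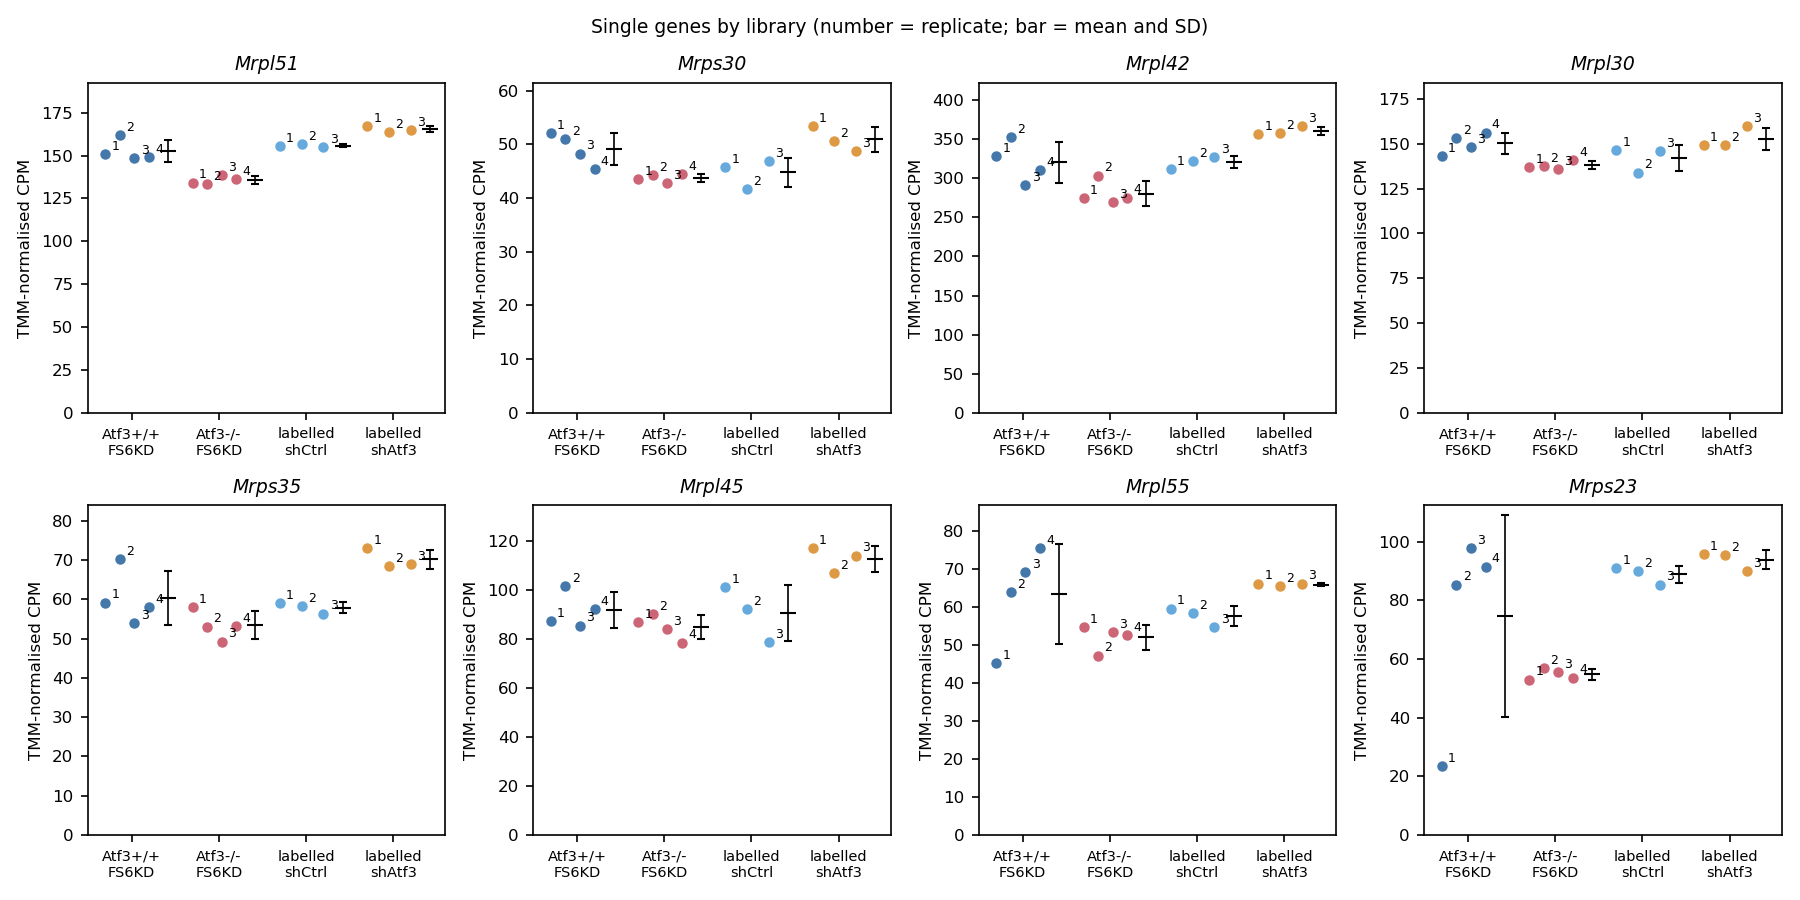
TMM-normalised CPM of 8 genes in each of the 14 libraries, with numbered replicates and with the mean and SD of each group; axes start at 0. Mrpl51 and Mrps30 show no overlap within either experiment, Mrps35 and Mrpl45 separate in the AAV experiment only, and in Mrps23 Atf3+/+FS6KD replicate 1 at 23.4 CPM lies far below the 3 other libraries of its group.

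Several members were followed for their roles. Mrpl12, whose product also binds mitochondrial RNA polymerase, had 232, 270.2, 266 and 272 CPM in Atf3+/+FS6KD and 245, 252, 263 and 242 CPM in Atf3-/-FS6KD (log2 fold change -0.06, SE 0.06, unadjusted p 0.417), and the groups overlapped. In the AAV experiment Mrpl12 had 249.7, 262 and 247 CPM against 304, 264 and 295 CPM (0.18, SE 0.07, unadjusted p 0.024), without overlap. Mrpl58, a peptidyl-tRNA hydrolase built into the large subunit, had log2 fold changes of -0.05 (SE 0.05) and 0.14 (SE 0.08), both with overlap. Mrpl12 and Mrpl58 changed sign in the knockout comparison under library-size scaling, to 0.01 and 0.02.

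The 3 S18 paralogs occupy different places, Mrps18a in the large subunit, Mrps18b and Mrps18c in the small. Their knockout fold changes were -0.03 (SE 0.07), 0.01 (SE 0.09) and -0.08 (SE 0.08), all with overlap, and the sign of Mrps18a and Mrps18b depended on single libraries. Their AAV fold changes were 0.10 (SE 0.07), 0.17 (SE 0.09) and 0.11 (SE 0.07), also with overlap. The row of Mrps18b averaged 11.03 CPM over the 14 libraries and that of Mrps18c 32.0 CPM. With its 2 copies added, Mrps18b averaged 33.0 CPM. Mrps36, no part of the ribosome, had groups without overlap in both experiments. It stood at 64.9, 74.9, 65.2 and 65.96 CPM in Atf3+/+FS6KD and at 64.0, 61.4, 61.8 and 63.7 CPM in Atf3-/-FS6KD (-0.11, SE 0.06, unadjusted p 0.099), and at 68.0, 63.8 and 64.8 against 72.2, 75.5 and 69.5 CPM in the AAV experiment (0.14, SE 0.06, unadjusted p 0.040).

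Mrpl3, Mrpl44, Mrps14 and Mrps22 are genes whose human counterparts have been found mutated in mitochondrial disease with cardiomyopathy. None of them reached an unadjusted p below 0.05 in the knockout comparison, where their log2 fold changes were -0.10 (SE 0.11), -0.10 (SE 0.07), 0.07 (SE 0.06) and -0.04 (SE 0.06). In the AAV comparison Mrps22 had the greatest value. It stood at 29.7, 26.4 and 24.0 CPM in libraries labelled shCtrl and at 34.3, 31.2 and 31.2 CPM in those labelled shAtf3 (0.27, SE 0.09, unadjusted p 0.014), without overlap. Mrps14 (0.17, SE 0.07, unadjusted p 0.044), Mrpl3 (0.09, SE 0.06) and Mrpl44 (0.03, SE 0.07) followed. Mrpl44, a protein with a ribonuclease fold, did not separate the groups, and its sign changed when the library labelled shCtrl replicate 3 or shAtf3 replicate 3 was left out (-0.01 in both cases).

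Chromosome 1, which carries Atf3, holds Mrpl15, Mrpl30, Mrps9, Mrpl44 and Mrps14. Of these 5, 4 had a negative knockout fold change and the median was -0.09, close to that of the whole module. Mrpl30 was the member of this group at an unadjusted p below 0.05. Mrps9 had -0.09 (SE 0.06) and Mrpl15 -0.03 (SE 0.06). All 5 were higher in the libraries labelled shAtf3, with Mrpl15 at 0.23 (SE 0.08, unadjusted p 0.015) and Mrps9 at 0.16 (SE 0.06, unadjusted p 0.021).

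At the extremes of abundance, Mrps21 (-0.12, SE 0.06, and 0.06, SE 0.08), Mrpl57 (-0.17, SE 0.15, and 0.19, SE 0.10), Mrpl47 (0.14, SE 0.08, and 0.23, SE 0.09) and Mrpl17 (0.04, SE 0.05, and 0.12, SE 0.06) are given with the knockout log2 fold change first and the AAV value second. Of these, Mrpl47 had an unadjusted p of 0.036 in the AAV comparison, and in the knockout comparison 0 of the 4 were below 0.05. Mrpl57 was lower in the shallow libraries of both genotypes, at 20.5 and 22.3 CPM against 29.6 and 27.3 CPM in Atf3+/+FS6KD and at 19.4 and 17.9 against 24.9 and 26.0 CPM in Atf3-/-FS6KD. The shallow and the deep libraries of Mrpl57 thus did not overlap in either genotype. The same held for 22 of the 78 members, of which 11, Mrpl57, Mrps12 and Mrpl52 among them, were lower in replicates 1 and 2 of both genotypes (8.65% of all genes) and 11 were higher (6.41%). These replicates differ in depth, and no label names a batch.

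Mrps23 showed the lowest knockout fold change of the module, -0.45, with a large error (SE 0.35, unadjusted p 0.235). It stood at 23.4, 85.4, 97.8 and 91.5 CPM in Atf3+/+FS6KD and at 53.0, 56.8, 55.6 and 53.7 CPM in Atf3-/-FS6KD. Replicate 1 of Atf3+/+FS6KD was the lowest of all, whereas the other 3 libraries of that genotype lay above every Atf3-/-FS6KD library. The count table also lists 2 copies of Mrps23. They held 84.8% of the joint counts in Atf3+/+FS6KD replicate 1, 56.3% to 56.6% in the other Atf3+/+FS6KD libraries, 69.0% to 69.5% in Atf3-/-FS6KD and 56.2% to 56.5% in the AAV libraries. With the copies added, the knockout log2 fold change was -0.14 (unadjusted p 0.220). How reads were divided between the copies thus differed between the genotypes and within 1 of them.

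The other members with copies kept their values. For Mrpl22 and Mrpl40 the copy held 49.9% to 50.1% and 50% of the joint counts, for Mrps10 49.05% to 49.7%, and for Mrps18b 2 copies held 66.5% to 66.7%. Adding the copies left the log2 fold changes of Mrpl22 at -0.20 and 0.08 and those of Mrps10 at -0.18 and 0.10. In 22 members an exon overlaps that of a gene on the opposite strand, and in 5 on the same strand. Among these is Mrpl36, which overlaps Ndufs6, the gene trapped in every mouse. Mrpl36 had log2 fold changes of -0.07 (SE 0.09) and 0.04 (SE 0.06). In the 47 members with neither a copy nor such an overlap, 41 were lower in the knockout comparison (median -0.08) and 44 higher in the AAV comparison (median 0.14).

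Promoter sequences were searched for short motifs, because the members tended to lie on the same side of 0. RefSeq windows from 250 bases before to 50 after the start (GRCm38.p6) were found for 69 of the 78 members, and shares were set beside 17492 protein-coding genes with windows of the same length. The ETS motif CCGGAAGT, on either strand, was in 12 member windows (17.4%) and in 5.69% of all. The palindromic NRF1 motif in capitals below, named for a regulator of nuclear genes for mitochondria, was in 3 (4.35%, all of the large subunit) and in 1.47% of all. The YY1 motif, in capitals below on its reverse strand, was in 5 (7.25%) and in 1.41% of all. The motif TGACGTCA, bound by ATF and CREB proteins, was in 2 (2.90%) and in 2.54% of all, and the AP-1 motif TGAGTCA in 2 (2.90%) and in 5.40%. GGGCGG, the SP1 motif, was in 34 (49.3%) and in 49.2%, CACGTG in 5 (7.25%) and in 8.91%, and the ERR motif TCAAGGTCA in 0 and in 0.377%. Both strands were searched throughout, and a match is a description of letters only. The windows below show, with the motif in capitals, Mrpl51 for the ETS motif, since it had the lowest knockout p, the 3 matches to NRF1, the match to YY1 that lies upstream of the start, and the 2 matches to the ATF motif. Position is that of the first motif base relative to the start, and each run is written 5′ to 3′ on the gene's strand.
Mrpl51 (ETS, -90, chr6:125192102-125192125, plus): gggctaaaCCGGAAGTatttgact
Mrpl39 (NRF1, -125, chr16:84735352-84735377, minus): ggagaggcGCGCATGCGCccccgcgt
Mrpl32 (NRF1, -87, chr13:14613107-14613132, minus): tgacccttGCGCATGCGCaagagggg
Mrpl9 (NRF1, -28, chr3:94443300-94443325, plus): gcgcagctGCGCATGCGCggggtcct
Mrps11 (YY1, -109, chr7:78783014-78783039, plus): tacgggcgCCGCCATCTTtctgtctt
Mrpl16 (ATF, -49, chr19:11770358-11770381, plus): ggacaggaTGACGTCActtcctgt
Mrpl49 (ATF, -154, chr19:6057894-6057917, minus): gctgcgtgTGACGTCActgcagcg
The 2 genes with the ATF motif did not stand apart from the module, with log2 fold changes of -0.08 (SE 0.05) and 0.05 (SE 0.06) for Mrpl16 and of -0.08 (SE 0.06) and 0.11 (SE 0.06) for Mrpl49, knockout first.

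Mitoribosomal proteins whose names follow another scheme were set beside the members. Dap3, a GTP-binding small subunit protein, stood at 96.3, 115, 82.6 and 105 CPM in Atf3+/+FS6KD and at 85.3, 85.8, 85.5 and 80.6 CPM in Atf3-/-FS6KD, a log2 fold change of -0.24 (SE 0.09, unadjusted p 0.029) with overlap. Its AAV log2 fold change was 0.09 (SE 0.06, unadjusted p 0.147), without overlap. Ptcd3, a pentatricopeptide protein of the small subunit, had -0.03 (SE 0.08) in the knockout comparison and 0.19 (SE 0.06, unadjusted p 0.013) in the AAV comparison, there without overlap. The knockout and AAV log2 fold changes were -0.09 and 0.15 for Chchd1, 0.05 and 0.05 for Aurkaip1, and -0.20 and 0.06 for Gadd45gip1, each with overlap. In all, 4 of these 5 were lower in the knockout comparison and 5 higher in the AAV comparison.

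Genes that serve the mitoribosome lay on the same sides. Counts at an unadjusted p below 0.05 stand in parentheses, where 4.69% of all genes were lower in the knockout and 5.05% higher in the AAV comparison. Of 24 assembly factors, 19 were lower in Atf3-/-FS6KD (2, median -0.05) and 21 higher in the libraries labelled shAtf3 (4, median 0.14). Of 15 translation factors and related enzymes, 13 were lower (0, median -0.09) and 14 higher (6, median 0.14). Of 76 nuclear OXPHOS subunits tested, 75 were lower (10, median -0.11) and 71 higher (13, median 0.10). Scaled by library size only, the assembly factors turned in the knockout comparison, to 13 of 24 higher with a median of 0.013, whereas the other 2 lists kept the sign of their medians (-0.025 and -0.048). No gene of these 3 lists passed the adjusted threshold in either comparison. Among 76 cytosolic ribosomal proteins, 66 were higher in Atf3-/-FS6KD with a median of 0.066, and 75 with library size alone. In the libraries labelled shAtf3 their median was 0.024, and -0.016 with library size alone. Ppargc1a, a coactivator of mitochondrial biogenesis, had log2 fold changes of -0.21 (SE 0.10, unadjusted p 0.067) and 0.28 (SE 0.06, unadjusted p 0.0016, adjusted p 0.121).

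Markers of cell types also differed between the groups, though the lists did not all go the same way. All 8 fibroblast markers were higher in Atf3-/-FS6KD, 6 of them at an unadjusted p below 0.05 (5.41% of all genes were). Their summed level was 1626 to 2008 CPM in Atf3+/+FS6KD and 2030 to 2856 CPM in Atf3-/-FS6KD. All 8 were lower in the libraries labelled shAtf3, 4 of them at an adjusted p below 0.05 (0.453% of all genes were). Their sums were 2349 to 3277 CPM in libraries labelled shCtrl and 1704 to 1818 CPM in those labelled shAtf3. Cardiomyocyte markers were lower in 7 of 8 cases in the knockout comparison and higher in 8 of 8 in the AAV comparison, with sums that overlapped in both. At an unadjusted p below 0.05, 2 of them were lower in the knockout (4.69% of all genes were). At that level 1, Actc1 (log2 fold change 0.47, the largest change of the list), was higher in the knockout (5.41%). In the AAV comparison 1 was higher (5.05%). Of 6 macrophage markers, 5 were higher in the knockout and 5 lower in the AAV comparison, with sums of 129 to 164 and 140.4 to 206 CPM, and of 196 to 217 and 179 to 184 CPM. At an unadjusted p below 0.05, 2 of them were higher in the knockout and 3 lower in the AAV comparison (5.41% and 7.65% of all genes were). Endothelial markers were higher in 6 of 6 cases and in 4 of 6. The 5 erythrocyte markers were lower in the knockout and higher in the AAV comparison, with 0 at an unadjusted p below 0.05, and of 6 lymphocyte and 5 adipocyte markers at most 1 each passed the CPM filter. Of 5 atrial markers 2 passed the CPM filter. In the AAV comparison both were lower (log2 fold change at the median -0.70, 1 at an unadjusted p below 0.05), and the sums of the list were 266 to 806 CPM under shCtrl and 250.2 to 337 CPM under shAtf3. In the knockout comparison their median was -0.016, with sums of 543 to 639 and 289 to 727 CPM. No defining marker was at 0 in any group except atrial Sln in the libraries labelled shAtf3. In whole hearts, fewer cells of a type and less RNA per cell cannot be told apart, and the part of these markers in the mitoribosomal values was not tested.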

How the data were processed

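Bulk RNA-seq in 14 whole-heart libraries was used. RNA came from a kit for fibrous tissue, and libraries were stranded and mRNA-selected. Per the labels, reads were counted on GRCm38.p6 with featureCounts 2.0.0. The aligner is not given in the sources used here. The authors deposited 2 tables with 1 estimated count (expected count) per gene and library, not normalized, in which 19.3% to 24.4% of values were not whole. Values were rounded before testing, although the planned design had assumed whole counts.

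Genes above 1 CPM in at least 1 library were tested with edgeR 4.0.16 in R 4.3.3 (TMM, two-sided quasi-likelihood F-test, Benjamini-Hochberg over all genes), without covariates. The 2 experiments were compared by an interaction in 1 fit of all 14 libraries. Log2 CPM used a prior count of 2. Scripts were tested on simulated data. No p was computed for lists.

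The members, the gene lists and the class of each protein were chosen with earlier results of these data known. Genes were named by rule. In each comparison and in their difference, these were up to 6 members per direction with the lowest unadjusted p below 0.05. The 3 highest and 3 lowest levels per kb, members with a set role and members on chromosome 1 were added. So were any member called in the main edgeR fits and the otherwise named mitoribosomal proteins. Not every member called by an alternative is named. Others that the text names were chosen after their values were seen. Gene models were from GENCODE M21 and promoters from RefSeq. Replicate numbers were checked for pairing by the correlation of deviations from group means. Chi-square per gene between replicates was 7.31 to 99.3, so no library was a duplicate. Replicates of the knockout experiment are stated to be biological. Nothing used here says so for the AAV libraries, whose p-values measure only the spread between samples, which may be technical. All sample columns were used (0 left out). Alternatives were other scalings, tests and filters, merged copies, a replicate block, the split in depth, turned AAV labels (added after the data had been seen) and leaving out each library.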

Additional observations from a re-analysis of the deposited data

Results flagged for a closer look

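The check for outliers covered 66 sets of 4 libraries, for the 29 members named by rule and for summaries of the subunits. Of these sets, 5 held a value far from the others of its group, and chance flags about 1 in 20. Mrps23 is not named by that rule and was not examined here. Its value of 23.4 CPM in Atf3+/+FS6KD replicate 1, against 85.4, 97.8 and 91.5 CPM, is described with its copies above. In Atf3+/+FS6KD replicate 1, Mrpl12 was low at 232.5 CPM (others 266.4 to 271.5) and Mrpl15 was low at 55.5 CPM (others 62.9 to 64.1). In Atf3+/+FS6KD replicate 2, Mrpl51 was high at 162 CPM (others 148.5 to 150.6) and Mrps36 was high at 74.9 CPM (others 64.9 to 65.96). In Atf3-/-FS6KD replicate 4, Mrpl47 was low at 25.9 CPM (others 28.4 to 28.7). The groups of the AAV experiment, with 3 libraries each, were too small for this check.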

How the results depend on the processing

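The medians of all members and of each subunit kept their sign under every alternative run but 1, added after the data had been seen. With the AAV labels turned, the medians of the difference were 0.038, 0.026 and 0.072 (members, large, small subunit), 21 members were lower, 0 of them at an unadjusted p below 0.05, and 0 genes were called. Under library-size scaling they were -0.017, -0.020 and -0.0021 in the knockout comparison (members, large, small subunit), 0.095, 0.083 and 0.100 in the AAV comparison, and -0.094, -0.101 and -0.085 for the difference. Knockout members lower at an unadjusted p below 0.05 (6) numbered 0 under library-size scaling (2.12% of all genes), 13 with a depth term (5.89%), 2 in replicates 1 and 2 (2.71%), 11 in 1 fit of 14 libraries (6.47%), and 2 to 14 without single libraries (3.29% to 5.49%). AAV members higher (28) numbered 13 under library-size scaling (2.5%) and 15 to 28 without single libraries (3.13% to 5.82%). For the difference (37) library-size scaling gave 11 (2.66%). Called members were 1 (knockout), 1 (AAV) and 12 (difference) in DESeq2, and 0 to 1, 0 and 0 to 2 without single libraries. Called genes (0, 82 and 26) numbered 208, 308 and 669 in DESeq2 and 2, 304 and 61 without a filter. They numbered 8 in knockout replicates 3 and 4, 31 and 1 in 1 fit of 14 libraries, 205 (difference, library size), 48 (difference, limma-trend), 43 (difference, merged copies), and 0 to 15, 1 to 285 and 0 to 168 without single libraries.

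For replicate numbers shared across groups, correlations of deviations were 0.145, 0.086, 0.0064 and 0.127 in the knockout experiment. They were -0.00037, 0.151 and 0.083 in the AAV experiment. Pairs with different numbers ran from -0.244 to 0.19 and from -0.178 to 0.0894. These values do not settle whether the numbers pair the samples, and the main fits left the samples unpaired. With the replicate block, 10 knockout members were lower at an unadjusted p below 0.05, and 20 AAV genes and 56 genes of the difference were called.

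Under library-size scaling the sign turned for 20 of 78 members in the knockout, 3 in the AAV comparison and 9 in the difference, where the largest of the values that turned were 0.062, 0.040 and 0.105 in size. Of the 29 members named by rule, these were Mrpl12 (0.0076), Mrpl15 (0.031), Mrpl58 (0.016), Mrps18a (0.036) and Mrps22 (0.026) in the knockout, Mrpl44 (-0.0057) in the AAV comparison, and Mrpl17 (0.019), Mrpl47 (0.0089) and Mrps14 (0.0015) in the difference. In DESeq2 only knockout Mrps18b turned (-0.0069). In replicates 3 and 4 the sign turned for 4 members, Mrps18b (-0.126) among them. In replicates 1 and 2 it turned for 14, among them Mrpl15 (0.040), Mrps22 (0.037) and Mrps23. Without single libraries, at most 6 members turned in any comparison, and values ran from -0.042 to 0.067 for knockout Mrps18b, -0.060 to 0.016 for Mrps18a and -0.054 to 0.00038 for Mrps22, and from -0.013 to 0.071 for AAV Mrpl44 and -0.017 to 0.129 for AAV Mrps21. The causes were not tested. Group sizes of 4 and 3 limit the precision of single genes.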
